A study of Mus musculus with 12 samples.

Results

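The DNA replication and S phase genes described here are 49 genes whose products license, start, carry out and supply the copying of the genome. They were chosen by symbol from a list of names, and 49 of 49 names were found among the 55487 genes of the authors' tables. The RNA came from sorted LSK cells of mouse bone marrow (negative for lineage markers, positive for Sca-1 and Kit), among which are stem cells and multipotent progenitors. All mice were labelled C57BL/6 and homozygous for JAK2V617F, the activating mutation of the kinase JAK2 found in human myeloproliferative neoplasms, so the vehicle group carried it too, and no group without the mutation was analysed here. The source was labelled BMT, taken here as bone marrow transplant, and each of the 4 groups held 3 libraries. The groups received vehicle, palbociclib, ruxolitinib, or palbociclib together with ruxolitinib, called the combination below. Palbociclib inhibits the kinases CDK4 and CDK6, and ruxolitinib inhibits JAK1 and JAK2. The labels give no dose, duration, age or sex, and do not say whether each library was made from its own animal, so p-values measure only the spread between libraries, which may be technical.

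Cells copy their genome once per division. In G1 the origin recognition complex, Cdc6 and Cdt1 load the MCM2-7 helicase on DNA, which licenses an origin. At the start of S phase the kinases Cdc7-Dbf4 and Cdk2 with cyclin E turn the loaded helicase into a moving fork, and polymerases, clamp, nucleotide enzymes, histone chaperones and methylation factors follow it. Many of these genes are transcribed by E2F factors. CDK4 and CDK6 phosphorylate the retinoblastoma protein, which otherwise holds E2F in check, and JAK2 signals below the cytokine receptors that drive progenitors to divide.

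The combination had lower RNA of this set than vehicle, and neither drug alone moved any member past the test. In the combination 20 of the 49 genes fell, 0 rose and 29 did not pass, at an adjusted p under 0.05 in the authors' DESeq2 test; 10.2% of all genes tested were lower by the same rule, and 19.5% of genes with a base mean of at least 500, the range in which all members lay. The base mean is the authors' mean of normalised reads over all libraries of their fit. The median log2 fold change of the 49 genes was -0.57 per the authors' deposited table, a median RNA level 32.9% below vehicle, against -0.014 over all genes whose base mean was 50 or more and -0.096 over those at 500 or more. With palbociclib 0 of 49 passed in either direction by DESeq2 and 5 had an unadjusted p under 0.05, where 3.64% of all genes (5% of those with a base mean of at least 500) were lower and 4.98% higher. The members' median was -0.17 and 36 of 49 fold changes were below 0 per the authors' deposited table. With ruxolitinib 0 of 49 passed by DESeq2 and 3 had an unadjusted p under 0.05, where 2.03% of all genes (2.1% of those with a base mean of at least 500) were lower and 0.932% higher. There the median was 0.10 and 39 of 49 fold changes were above 0 per the authors' deposited table. The 3 comparisons share the vehicle libraries, so their values stand side by side and are not independent.

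The files held no values per library, and each gene's level in a group was solved from the authors' fold changes and standard errors, as normalised reads with a 95% interval that covers counting error and the modelled spread. The implied depth was 31.5 to 34.8 M reads for the vehicle libraries, 25.1 to 30.1 for palbociclib, 21.4 to 34.1 for ruxolitinib and 18.2 to 44.7 for the combination. All 49 members had a level, the lowest in any group being 394 normalised reads. The modelled coefficient of variation between replicates ranged from 14.5% for Mcm4 to 33.8% for Uhrf1, with a median of 20.1%. The median over the 8463 genes with a base mean of at least 500 was 13.7%. The summed level of the 49 genes was 264921 normalised reads in vehicle, 232731 under palbociclib, 283421 under ruxolitinib and 175639 under both. The sum in the combination was thus 0.663 times that of vehicle, against 0.878 with palbociclib and 1.07 with ruxolitinib. In bulk RNA fewer cells in S phase and less of this RNA in each cell cannot be told apart.

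**Figure D1:**
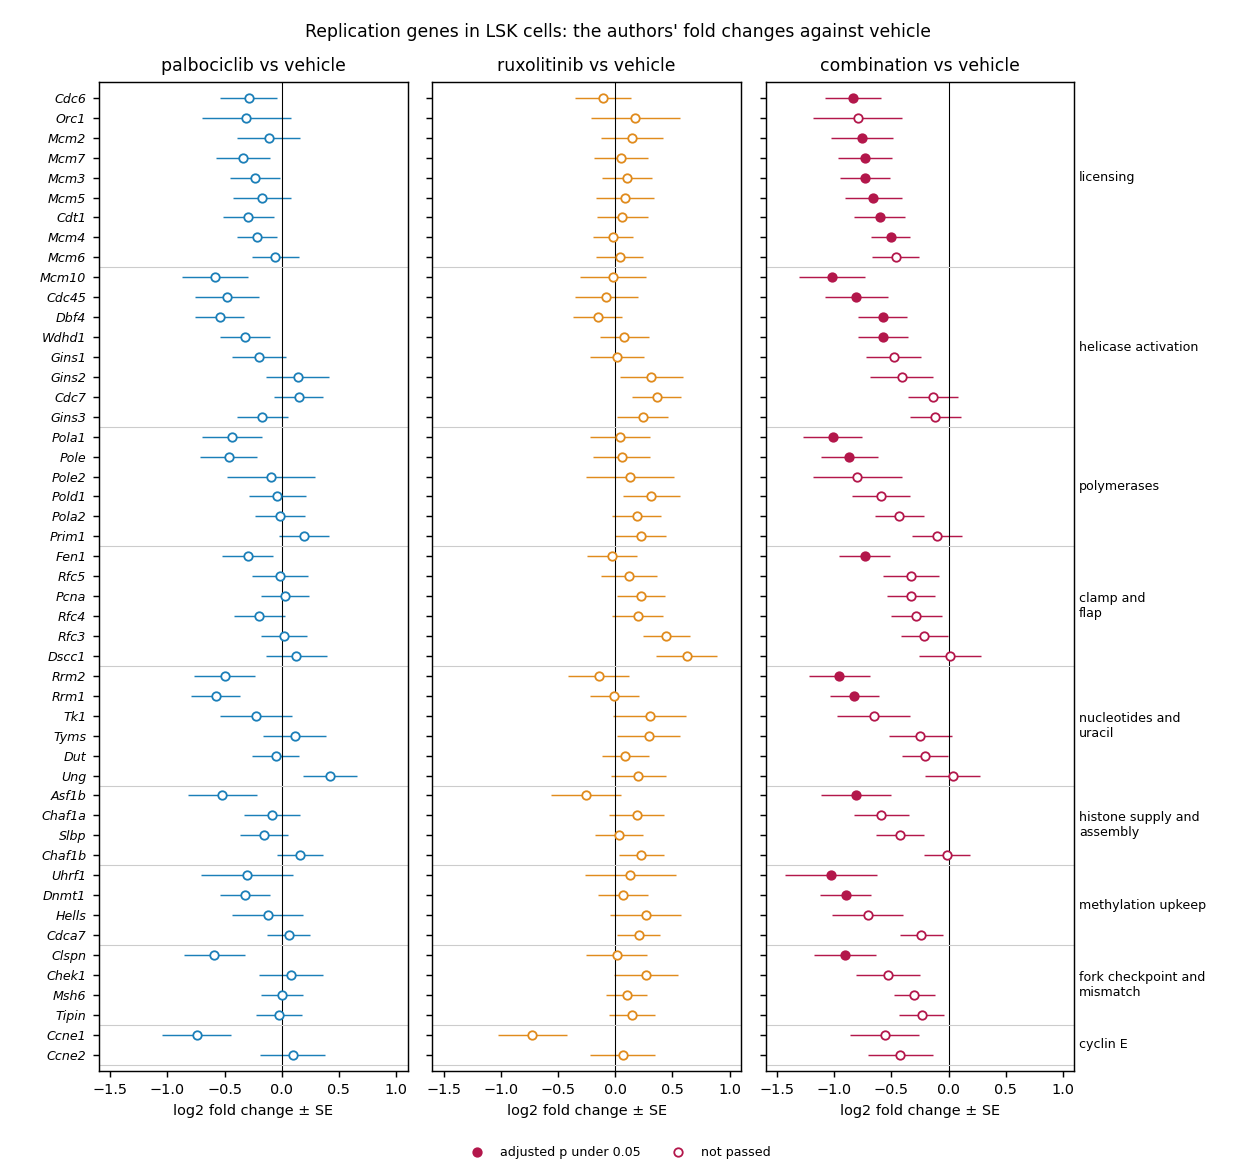
Log2 fold change against vehicle with its standard error for each of the 49 genes (rows, grouped by role) per the authors' deposited table, with palbociclib, ruxolitinib and the combination in separate panels. Filled points passed at an adjusted p under 0.05: 20 in the combination, all of these below 0, and 0 with either single drug.

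Promoters are shown because these genes are textbook targets of E2F, the factor downstream of the kinases that palbociclib inhibits. RefSeq promoters on GRCm38.p6, from 250 bases before to 50 after a start, were given for 42 of the 49 genes. The letters TTTGGCGC, TTTCCCGC, TTTGCCGC or TTTCGCGC on either strand, forms of the E2F motif, were in the promoters of 18 of these 42 genes (42.9%) and of 2.60% of all 27025 genes of the table. Of the members that fell in the combination 9 of 18 held such a match, and of those that did not pass 9 of 24. The letters CCAAT on either strand, bound by NF-Y, were in 22 of 42 member promoters (52.4%), against 41.1% of all genes. They were in 13 of 18 members that fell and 9 of 24 that did not pass. The letters TTTGAA or TTCGAA, forms of the cell cycle homology region of late cell cycle genes, were in 10 of 42 member promoters (23.8%), against 21.7% of all genes and 83.3% of 30 G2/M genes. They were in 7 of 18 members that fell and 3 of 24 that did not pass. These splits were not tested. No motif contains another, and a match is a description of letters and not a bound site.

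The 4 genes with the smallest p in the combination among those that fell and held an E2F match were Dnmt1, Pola1, Cdc6 and Clspn, and the member with the largest p and a promoter entry was Chaf1b, which held none. Sequences are written 5′ to 3′ on the strand of the gene with the match in capitals. The 250 bases before the start are printed for Pola1 (chrX:93632156-93632405, minus strand) and Chaf1b (chr16:93883651-93883900, plus strand), and 30 bases around each match for genes with an annotated transcript across that window. These are 2 stretches of Dnmt1 around 1 of its 3 starts (chr9:20952824-20952853 and chr9:20952574-20952603, minus strand) and 1 each of Cdc6 (chr11:98908002-98908031, plus strand) and Clspn (chr4:126556990-126557019, plus strand).
Dnmt1, first match: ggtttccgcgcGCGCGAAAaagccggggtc
Dnmt1, second match: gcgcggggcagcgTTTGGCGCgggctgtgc
Cdc6: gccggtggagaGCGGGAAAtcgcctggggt
Clspn: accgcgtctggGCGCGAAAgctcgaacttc
Pola1: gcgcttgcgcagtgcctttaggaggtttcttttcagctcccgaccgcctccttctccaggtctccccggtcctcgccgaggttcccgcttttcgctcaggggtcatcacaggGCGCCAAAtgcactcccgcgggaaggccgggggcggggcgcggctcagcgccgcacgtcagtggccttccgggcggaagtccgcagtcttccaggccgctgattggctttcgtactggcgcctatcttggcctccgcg
Chaf1b: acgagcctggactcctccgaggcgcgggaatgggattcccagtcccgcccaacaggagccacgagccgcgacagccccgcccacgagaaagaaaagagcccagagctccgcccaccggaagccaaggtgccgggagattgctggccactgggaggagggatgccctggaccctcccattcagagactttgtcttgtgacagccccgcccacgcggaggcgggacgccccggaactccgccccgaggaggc
The matches of Pola1 and Cdc6 begin 138 bases before the start, that of Clspn begins 21 bases after it, and those of Dnmt1 lie 219 bases before and 33 after the start used. All but the second of Dnmt1 are on the strand opposite to the gene.

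Licensing genes were the role in which the most members fell. In the combination 7 of 9 fell and 2, Mcm6 and Orc1, did not pass, with a median log2 fold change of -0.73 per the authors' deposited table; 5 of the 6 subunits of the MCM2-7 helicase were among them. All 9 had an unadjusted p under 0.05. Mcm3, a helicase subunit, was at 13555 normalised reads in vehicle, 11542 under palbociclib, 14558 under ruxolitinib and 8174 under both. The combination interval of 6621 to 10093 lay below those of vehicle (10982 to 16732) and ruxolitinib, and overlapped that of palbociclib. Its log2 fold change per the authors' deposited table was -0.73 ± 0.22 (standard error; adjusted p = 0.00751 by DESeq2). Mcm7 was at -0.73 ± 0.24 (adjusted p = 0.0139), Mcm2 at -0.76 ± 0.27 (adjusted p = 0.0294) and Mcm5 at -0.66 ± 0.25 (adjusted p = 0.0422) per the authors' deposited table. Mcm4 had the smallest change of the helicase subunits that passed, at -0.51 ± 0.17 (adjusted p = 0.0195) per the authors' deposited table, and also the smallest spread of all members. Its level went from 8871 normalised reads in vehicle to 6247, 29.6% lower, with intervals that did not overlap.

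The loaders Cdc6 and Cdt1 fell as well, and the origin subunit Orc1 did not pass. Cdc6, the ATPase that joins the origin complex, was at 2662 normalised reads in vehicle, 2177 under palbociclib, 2474 under ruxolitinib and 1489 under both, and fell by 44.0% in the combination. Its log2 fold change per the authors' deposited table was -0.84 ± 0.25 (adjusted p = 0.00629 by DESeq2), the largest of the role. Cdt1, which brings the helicase to the origin, was at 4155 normalised reads in vehicle, 3396 under palbociclib, 4331 under ruxolitinib and 2740 under both. It was at -0.60 ± 0.22 (adjusted p = 0.0347) per the authors' deposited table, and its vehicle and combination intervals met at 3355 and 3396. Orc1, the largest subunit of the origin complex, had the lowest level per kilobase of transcript of all 49 genes in each group, 227 normalised reads per kilobase in vehicle. It was at -0.80 ± 0.39 per the authors' deposited table and missed the threshold (adjusted p = 0.124), with a wide standard error. Mcm6, the helicase subunit with the highest level, 20697 normalised reads in vehicle and 15011 in the combination, lay just outside the threshold at -0.46 ± 0.21 (adjusted p = 0.0875) per the authors' deposited table.

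Of the genes that turn the loaded helicase into a fork, 4 of 8 fell in the combination: Mcm10, Cdc45, Dbf4 and Wdhd1. Mcm10, which activates the helicase, was at 2764 normalised reads in vehicle, 1842 under palbociclib, 2726 under ruxolitinib and 1363 under both. The combination was lowest and its interval lay below those of vehicle and ruxolitinib. At -1.02 ± 0.29 per the authors' deposited table (adjusted p = 0.00433 by DESeq2), its RNA was 50.7% below vehicle. Cdc45, a subunit of the active helicase, was at -0.81 ± 0.28 (adjusted p = 0.0215) per the authors' deposited table. Wdhd1, which ties the helicase to polymerase alpha, was at -0.57 ± 0.22 (adjusted p = 0.0377) there.

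Of the pair that makes up the Dbf4-dependent kinase, the subunit gene Dbf4 fell and Cdc7 did not pass, and the genes were not tested against each other. Dbf4, the regulatory subunit, was at 2247 normalised reads in vehicle, 1542 under palbociclib, 2018 under ruxolitinib and 1507 under both. Palbociclib alone and the combination had close levels, with log2 fold changes per the authors' deposited table of -0.54 ± 0.21 (adjusted p = 0.0885) and -0.58 ± 0.21 (adjusted p = 0.0338). Cdc7, the catalytic subunit, was at 1528 normalised reads in vehicle, 1693 under palbociclib, 1964 under ruxolitinib and 1390 under both, with intervals that all overlapped. Its combination value was -0.14 ± 0.22 (adjusted p = 0.688) per the authors' deposited table. Of the GINS genes, which complete the helicase, Gins1, Gins2 and Gins3 did not pass, at -0.48, -0.41 and -0.12 per the authors' deposited table.

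Among the polymerase genes 2 of 6 fell, the catalytic subunits of polymerases alpha and epsilon. Pola1, which with primase starts each new strand, was at 6113 normalised reads in vehicle, 4518 under palbociclib, 6288 under ruxolitinib and 3027 under both. Its level was 50.5% below vehicle, at a log2 fold change of -1.01 ± 0.26 per the authors' deposited table (adjusted p = 0.00155 by DESeq2), and the combination interval of 2356 to 3888 was below those of vehicle and ruxolitinib. Pole, the leading strand polymerase, was at 4330 normalised reads in vehicle, 3139 under palbociclib, 4500 under ruxolitinib and 2372 under both, and at -0.87 ± 0.25 (adjusted p = 0.00474) per the authors' deposited table. Pold1, the catalytic subunit of lagging strand polymerase delta, lay just outside the threshold at -0.59 ± 0.25 (adjusted p = 0.0706) there. The accessory subunits Pola2 and Pole2 were at -0.43 and -0.80 and did not pass, and the primase gene Prim1 was at -0.10, near 0, per the authors' deposited table.

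The clamp and flap genes were the role with the smallest median change, -0.31 per the authors' deposited table, and 1 of the 6, Fen1, fell. Fen1, the nuclease that trims Okazaki fragments, was at 5113 normalised reads in vehicle, 4157 under palbociclib, 5024 under ruxolitinib and 3071 under both. Its log2 fold change per the authors' deposited table was -0.74 ± 0.22 (adjusted p = 0.00730 by DESeq2). Pcna, the sliding clamp and the member with the highest level per kilobase in each group, was at 14464 normalised reads in vehicle, 14762 under palbociclib, 16898 under ruxolitinib and 11490 under both. The intervals of vehicle and combination overlapped, and its value per the authors' deposited table was -0.33 ± 0.21 (adjusted p = 0.253). The clamp loader genes Rfc3, Rfc4 and Rfc5 did not pass, at -0.33 to -0.21 per the authors' deposited table. Dscc1, of an alternative clamp loader, was at 0.012 ± 0.27 there (adjusted p = 0.984), with the largest p of the 49 genes.

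Both subunit genes of ribonucleotide reductase, the enzyme that makes deoxynucleotides, fell, and the 4 other genes of nucleotide and uracil handling did not pass. Rrm1, the large subunit, was at 15092 normalised reads in vehicle, 10119 under palbociclib, 14988 under ruxolitinib and 8527 under both. Vehicle and ruxolitinib had nearly equal levels, and both drugs together gave a level 43.5% below vehicle. The log2 fold change per the authors' deposited table was -0.82 ± 0.22 (adjusted p = 0.00190 by DESeq2), and with palbociclib alone -0.58 ± 0.21 (adjusted p = 0.0703), the smallest adjusted p of any member with palbociclib. Rrm2, the small subunit whose amount rises in S phase, was at 6090 normalised reads in vehicle, 4306 under palbociclib, 5507 under ruxolitinib and 3141 under both. It was at -0.96 ± 0.27 per the authors' deposited table (adjusted p = 0.00382). Tk1 was at -0.66 ± 0.32 (adjusted p = 0.120) and Tyms, thymidylate synthase, at -0.25 ± 0.28 (adjusted p = 0.549) per the authors' deposited table. Dut and Ung, which keep uracil out of DNA, were at -0.21 and 0.035 there, and Ung was the only member besides Dscc1 above 0.

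**Figure D2:**
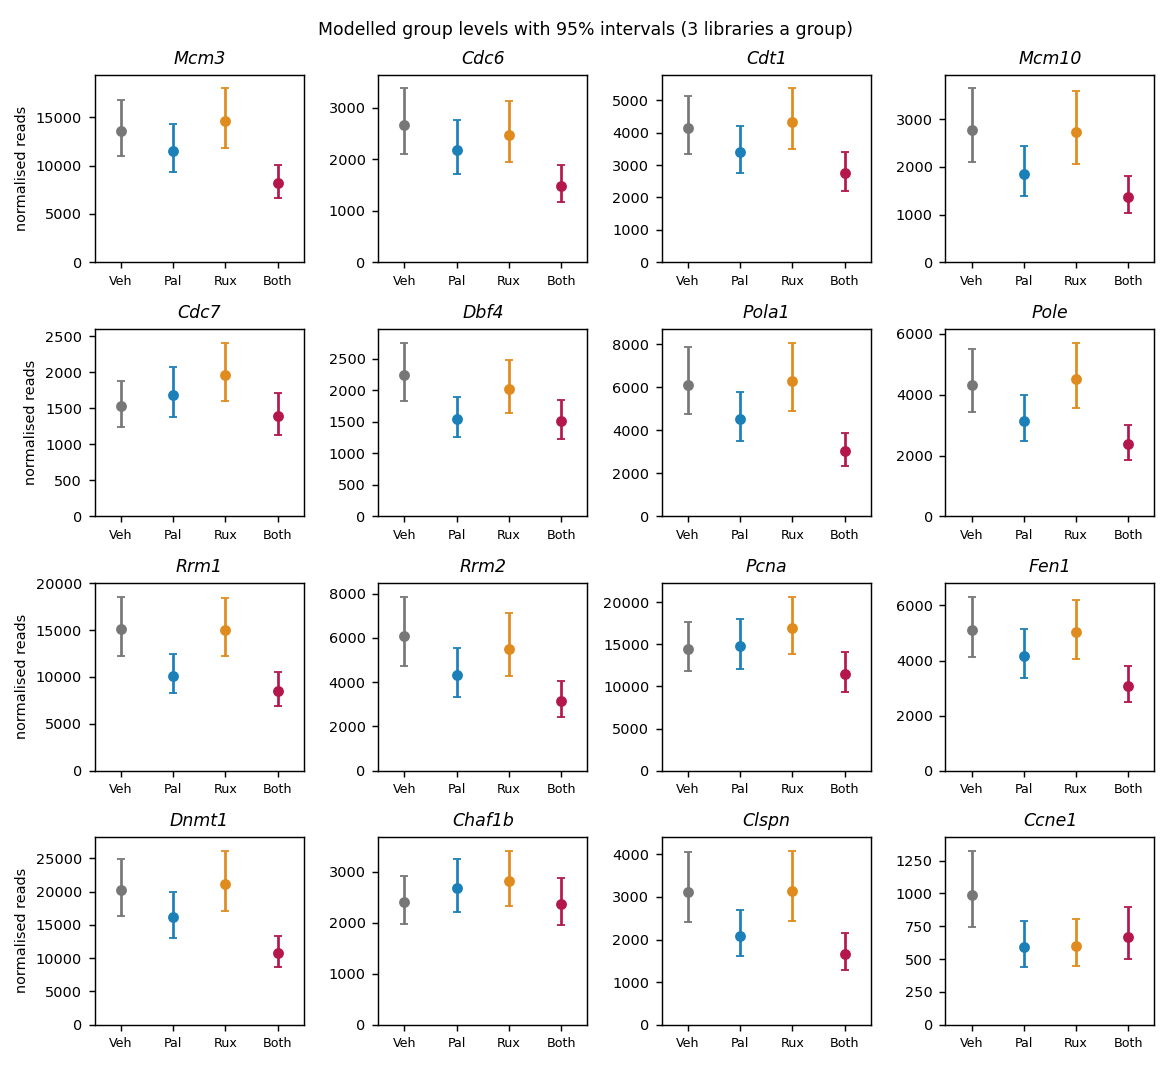
Modelled level in normalised reads (vertical axis, from 0) of 16 of the genes in vehicle (Veh), palbociclib (Pal), ruxolitinib (Rux) and the combination (Both), with 95% intervals; each group held 3 libraries. For Pola1 the combination is at 3027 against 6113 in vehicle, while the 4 intervals of Chaf1b and of Cdc7 overlap.

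In the group for histone supply and assembly, Asf1b fell and 3 genes did not pass. Asf1b, a histone chaperone of dividing cells, was at 1523 normalised reads in vehicle, 1062 under palbociclib, 1274 under ruxolitinib and 869.8 under both, and at -0.81 ± 0.30 per the authors' deposited table (adjusted p = 0.0382 by DESeq2). The vehicle and combination intervals overlapped narrowly. Chaf1a and Chaf1b, which encode subunits of the same chromatin assembly factor, did not pass. Chaf1a was at -0.59 ± 0.24 (adjusted p = 0.0618) per the authors' deposited table, the first gene outside the threshold, and Chaf1b at -0.016 ± 0.20 (adjusted p = 0.967). Slbp, which binds histone mRNA, was at -0.43 ± 0.21 (adjusted p = 0.124) per the authors' deposited table.

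Upkeep of DNA methylation was the role with the lowest median, -0.80 per the authors' deposited table, with 2 of 4 genes lower. Dnmt1, which copies methylation onto the new strand, lies on chromosome 9 from 20907209 to 20959888 (GRCm38, ENSMUSG00000004099). Its level was 20191 normalised reads in vehicle, 16152 under palbociclib, 21144 under ruxolitinib and 10811 under both. The combination was 46.5% below vehicle, with an interval of 8746 to 13364 that did not meet those of vehicle or ruxolitinib. At -0.90 ± 0.22 per the authors' deposited table (adjusted p = 0.000859 by DESeq2), it had the smallest p of the 49 genes. Uhrf1, which brings Dnmt1 to hemimethylated DNA, was at 9499 normalised reads in vehicle, 7697 under palbociclib, 10398 under ruxolitinib and 4654 under both. It had the largest change of all members, -1.03 ± 0.40 per the authors' deposited table, and also the largest spread between replicates (adjusted p = 0.0445). The helicase gene Hells and its partner Cdca7 did not pass, at -0.71 ± 0.31 (adjusted p = 0.0810) and -0.24 ± 0.19 (adjusted p = 0.383) per the authors' deposited table.

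Of the genes of fork protection and mismatch repair, Clspn fell. Clspn, which passes the checkpoint signal to Chek1, was at 3122 normalised reads in vehicle, 2076 under palbociclib, 3150 under ruxolitinib and 1663 under both. Its combination value was -0.91 ± 0.27 per the authors' deposited table (adjusted p = 0.00674 by DESeq2), and palbociclib alone was at -0.59 ± 0.27 (adjusted p = 0.164). The checkpoint kinase gene Chek1 was at -0.53 ± 0.28 (adjusted p = 0.164) there. Tipin, of the fork protection complex, and Msh6, of mismatch recognition, were at -0.24 and -0.30 per the authors' deposited table, and neither passed.

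Of the 2 genes of cyclin E, the partner of Cdk2 at the start of S phase, Ccne1 was an exception in its order of groups. Ccne1 was at 990.2 normalised reads in vehicle, 592 under palbociclib, 598 under ruxolitinib and 671 under both, so vehicle was highest and each drug group was lower by a like amount. Its values per the authors' deposited table were -0.74 ± 0.30 with palbociclib (adjusted p = 0.105), -0.73 ± 0.30 with ruxolitinib (adjusted p = 0.220) and -0.56 ± 0.30 in the combination (adjusted p = 0.171), none past the DESeq2 threshold. It was the lowest of the 49 fold changes with either single drug. Ccne2 was at 1316 normalised reads in vehicle, 1404 under palbociclib, 1378 under ruxolitinib and 981 under both, and at -0.42 ± 0.28 in the combination per the authors' deposited table (adjusted p = 0.288).

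Across the set the order of the groups was shared by many genes. The combination had the lowest level in 45 of 49 genes, and ruxolitinib the highest in 37, vehicle in 10 and palbociclib in 2. The full order of combination, palbociclib, vehicle and ruxolitinib, from low to high, was seen in 25. Neighbours in this order were mostly within their intervals: no member passed for palbociclib or ruxolitinib against vehicle, and none for the combination against palbociclib. Per kilobase of the principal transcript, Pcna, Mcm6, Mcm7, Mcm3 and Cdca7 were the 5 highest members in vehicle, at 9528, 7112, 5517, 4472 and 4192 normalised reads per kilobase. In the combination Pcna and Mcm6 remained first and second at 7569 and 5158, while Pola1 went from rank 27 to rank 33 and Mcm10 from rank 40 to rank 46. As a description over the 49 genes, which share libraries, Spearman's rho of the combination fold change was -0.46 with transcript length, -0.40 with gene length and -0.26 with base mean. The median principal transcript was 3376 bases in the 20 genes that fell and 2421 bases in the 29 that did not pass.

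Whether the combination differed from each drug alone was tested on the difference of the authors' fold changes, in which vehicle cancels, over an error from the 2 drug groups' recovered variances (2-sided normal, Benjamini-Hochberg over 12050 genes). Against ruxolitinib 27 of the 49 genes were lower in the combination and 0 higher, where 10.7% of all genes tested were lower and 12.3% higher, and the median difference of the members was -0.66. These were 7 of 9 licensing genes, 4 of 8 of helicase activation, 4 of 6 polymerase genes, 3 of 4 of methylation upkeep and 3 of 6 each of the clamp and nucleotide genes. Dnmt1 differed by -0.97 ± 0.22 in log2 (adjusted p = 0.000436; 95% interval -1.40 to -0.54). Pola1 differed by -1.05 ± 0.26 (adjusted p = 0.00118) and Mcm3 by -0.83 ± 0.22 (adjusted p = 0.00246). Pcna, which had not passed against vehicle, was lower than with ruxolitinib by -0.56 ± 0.21 (adjusted p = 0.0385), and Pold1 by -0.91 ± 0.25 (adjusted p = 0.00404). With an error from the root of the summed squared deposited errors, which counts the vehicle variance again on both sides, 0 of the 49 passed. The count of 27 thus depended on the error used. In simulated data the recovered variances, which gave it, let through a larger share of false calls than the threshold allows.

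Against palbociclib the combination was lower in 0 of 49 genes and higher in 0 by the same normal test, where 0.747% of all genes were lower and 1.43% higher; 11 members had an unadjusted p under 0.05. The median difference was -0.36, and 47 of 49 differences were below 0. Dnmt1 came nearest, at -0.58 ± 0.22 (adjusted p = 0.117), with a 95% interval from -1.01 to -0.15. The interval of Mcm2 ran from -1.18 to -0.11, that of Rrm1 from -0.67 to 0.17 and that of Dbf4 from -0.45 to 0.38. So differences of the size seen against ruxolitinib were not shown, and for genes such as Mcm2 were not outside the interval either. Palbociclib against ruxolitinib gave 0 of 49 lower and 0 higher, with 5 at an unadjusted p under 0.05, where 0.191% of all genes were lower and 0.971% higher. Rrm1 had the smallest p there, at -0.57 ± 0.21 (adjusted p = 0.230).

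The combination was also set against the sum of both single drug effects, which asks whether the effects add on the log2 scale. Here 0 of 49 members passed in either direction and 11 had an unadjusted p under 0.05, where 0.83% of all genes were below the sum and 1.78% above it. The median departure was -0.46, and 47 of 49 departures were below 0. Pold1 had the smallest p, with a departure of -0.87 ± 0.35 (adjusted p = 0.152; 95% interval -1.56 to -0.17). Ccne1 lay on the other side at 0.91 ± 0.43 (adjusted p = 0.226). The standard errors of these departures are larger than those of single comparisons because 4 groups enter.

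**Figure D3:**
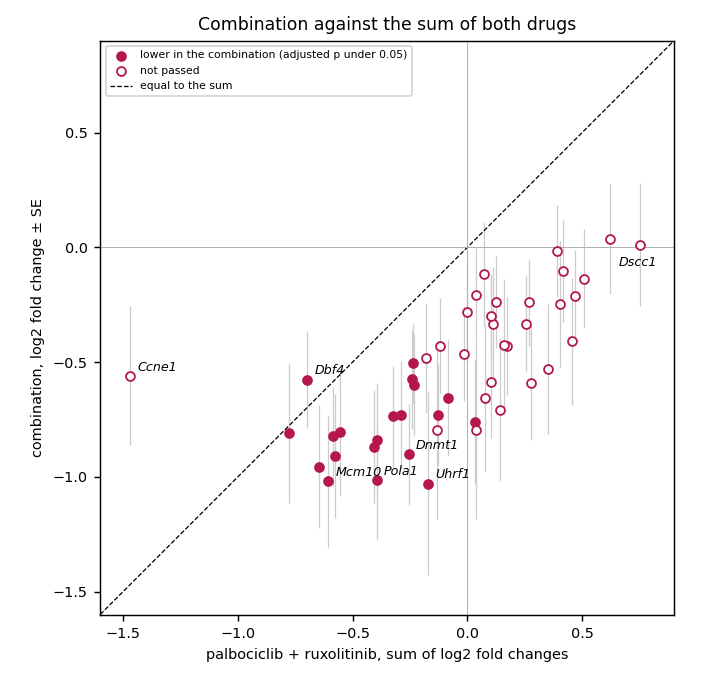
Log2 fold change of each gene in the combination with its standard error (vertical axis) against the sum of its log2 fold changes with palbociclib and with ruxolitinib (horizontal axis), all against the same vehicle libraries. Points under the dashed line of equality, 47 of 49, were below the sum; 0 of these departures passed the test, and Ccne1 stands alone at the left, above the line.

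Other genes of the same machinery were read from a list of 57 that are not among the 49, such as the other origin subunits, replication protein A and ligase I. In the combination 21 of the 57 fell and 0 rose, where 10.2% of all genes tested were lower and 12.9% higher. Among genes with a base mean of at least 500, 19.5% were lower. The median log2 fold change of the 57 was -0.36 per the authors' deposited table. Recql4, a helicase of origin firing, was at 896 normalised reads in vehicle, 527 under palbociclib, 999.8 under ruxolitinib and 406 under both, and at -1.14 ± 0.24 per the authors' deposited table (adjusted p = 0.000104 by DESeq2). Pclaf, which binds Pcna, was at -1.40 ± 0.33 (adjusted p = 0.000621) and Atad5, which unloads it, at -1.05 ± 0.25 (adjusted p = 0.000642) per the authors' deposited table. With palbociclib 1 of the 57 passed, Recql4, which fell, at -0.77 ± 0.24 per the authors' deposited table (adjusted p = 0.0259). Of all genes tested 3.64% were lower there and 4.98% higher. Ruxolitinib moved 0 of the 57 past the DESeq2 test, 4 having an unadjusted p under 0.05. Its shares of all genes were 2.03% lower and 0.932% higher.

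The G2/M genes, which act after replication, had another pattern over the same groups. Of 36 such genes 15 fell with palbociclib and 20 in the combination, with medians of -0.86 and -0.88 per the authors' deposited table, and 0 passed with ruxolitinib by DESeq2 (median -0.13, 0 at an unadjusted p under 0.05). By that rule 3.64% of all genes tested were lower with palbociclib and 10.2% in the combination. Among genes with a base mean of at least 500 these shares were 5% and 19.5%. The proliferation marker Mki67 was at 25286 normalised reads in vehicle, 10262 under palbociclib, 20359 under ruxolitinib and 11228 under both. The mitotic kinase gene Plk1 was at 2806 normalised reads in vehicle, 1248 under palbociclib, 2150 under ruxolitinib and 1283 under both, and Ccnb1, cyclin B1, at 4288 normalised reads in vehicle, 2304 under palbociclib, 3868 under ruxolitinib and 2470 under both. Mki67 and Plk1 passed with palbociclib and in the combination. Ccnb1 lay just outside the threshold in both (adjusted p = 0.0517 and 0.0506 by DESeq2). For these 3 genes palbociclib alone and the combination were close, whereas the median of the 49 replication genes went from -0.17 with palbociclib to -0.57 in the combination. The median difference between combination and palbociclib was -0.025 for the G2/M genes and -0.36 for the replication genes; neither list had a gene past the test of that difference (0 and 11 at an unadjusted p under 0.05), and the lists were not tested against each other.

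**Figure D4:**
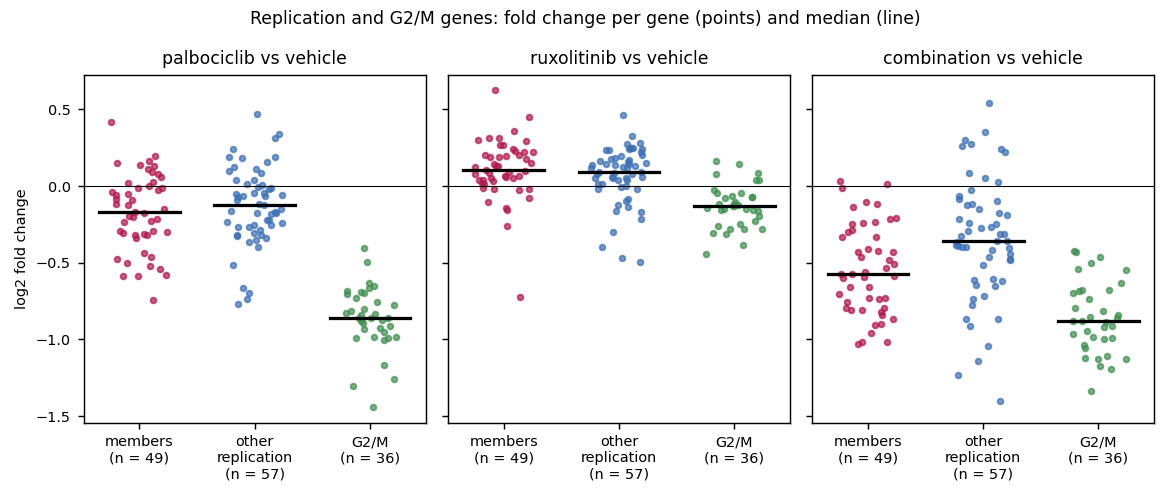
Log2 fold change against vehicle per the authors' deposited table of each of the 49 replication genes, 57 other replication genes and 36 G2/M genes (points, spread sideways only to be seen) with the median of each list (line), by comparison. The medians of the G2/M genes are -0.86 with palbociclib and -0.88 in the combination, and those of the 49 genes are -0.17 and -0.57.

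Genes of other cells and of stem cells moved with the same groups. The sort genes Kit and Ly6a, which encodes Sca-1, were present in each group, and both rose in the combination. Kit was at 14277 normalised reads in vehicle, 15506 under palbociclib, 14933 under ruxolitinib and 19878 under both, and at 0.48 ± 0.18 in the combination per the authors' deposited table (adjusted p = 0.0349 by DESeq2). Ly6a was at 1004 normalised reads in vehicle, 2102 under palbociclib, 1165 under ruxolitinib and 3557 under both, and rose by 1.07 ± 0.35 on the log2 scale with palbociclib (adjusted p = 0.0322) and by 1.83 ± 0.35 in the combination (adjusted p = 1.09e-05) per the authors' deposited table. The summed level of 7 long-term stem cell genes was 7664 in vehicle, 14112 under palbociclib, 12546 under ruxolitinib and 18438 under both drugs, with 6 of 7 higher there. Plasma and B cell genes summed to 11207, 36805, 3395 and 750818 normalised reads, in the same order of groups, which was 0.0384%, 0.132%, 0.0119% and 2.43% of all reads. Of these 6 genes 1 rose with palbociclib, 0 passed with ruxolitinib and 4 rose in the combination. Mature granulocyte genes summed to 176, 6098, 63.5 and 1199. Of these 6 genes 5 rose with palbociclib, 0 passed with ruxolitinib and 4 rose in the combination. The 5 monocyte genes summed to 10214, 2126, 3185 and 1630, and 5 of 5 fell in each drug group. The 6 erythroid genes summed to 7214, 4010, 2443 and 9194, with 2 higher and 2 lower in the combination. Higher were the globin genes Hba-a1 (233 normalised reads in vehicle, 2974 in the combination) and Hbb-bs (296 and 3494). Lower were Gata1 (1835 and 1000) and Tspo2 (390 and 80.3). Klf1 (1199 and 604) and Ermap (3261 and 1042) did not pass there. With palbociclib 3 of the 6 erythroid genes were lower and with ruxolitinib 4, and 0 were higher with either. The T cell genes Cd3e, Cd3d and Trac were at or near 0. The part of these cell types and of the sort genes in the fall of the replication genes was not tested.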

How the data were processed

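RNA selected for polyA from 12 libraries, 3 a group, was sequenced after magnetic lineage depletion and flow sorting, per the labels' protocols. For processing, the submitters' notes list GRCm38 and, in no stated order, HISAT2 2.0.1, fastp 0.20.0, featureCounts 2.0.0, SAMtools 1.10 and DESeq2. The values used were 3 deposited tables of the authors' DESeq2 results, each an arm against vehicle. The base mean is a signal, the mean of normalised counts by the authors. The log2 fold change, its standard error, the score (a Wald statistic), the p-value and the adjusted p are those the authors deposited, and nothing was refitted. Genes with an adjusted p under 0.05 passed.

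Single-read genes showed that the authors' fit held 24 libraries, 12 of them not analysed here, which share its spread. For each gene the vehicle level and dispersion were solved from the 3 standard errors, with a fitted mean of at least 0.5, for 18427 of 19228 genes tested in the combination (95.8%) and 12050 of 12085 with a base mean of at least 50. Differences between arms used the group variances so recovered. In simulated data with 200 changed genes among 12049, the difference of combination and ruxolitinib found 69% of 2-fold and 98% of 4-fold changes and called 16 unchanged genes. With the summed deposited errors it found 51% and 92% and called 4 unchanged genes. The same error against palbociclib found 57% and 90% and called 7. The simulation took the dispersions as known, so error in estimating them did not enter. With the recovered variances, the main test, the other comparisons were as follows. For combination against palbociclib the shares were 71% and 99%, with 30 unchanged genes called. For the departure from the sum they were 54% and 92%, with 25. For palbociclib against ruxolitinib, with the changes placed in palbociclib, they were 78% and 97%, with 14. No change under 2-fold was simulated, while the members' median was -0.36 in log2 against palbociclib and -0.46 for the departure. Power for changes of that size was thus not measured. At most 200 calls could be true in a simulation. With the recovered variances, false calls were therefore a larger share of all calls than the adjusted p threshold allows, in each comparison. Lengths and coordinates came from GENCODE mouse release 21 on GRCm38, the length being that of the principal transcript. Python 3.11.15, numpy 2.4.6, pandas 2.3.3 and scipy 1.17.1 were used.

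Members, lists and tests were chosen with earlier results of these data known. Fold changes with standard errors and adjusted p are given for members that passed and for the 2 of each role with the smallest p in the combination. They are also given for 3 other replication genes that fell. Levels are given for many of these genes and for Mki67, Plk1 and Ccnb1. The remaining values named, the pairs of subunits among them, were chosen after they were seen. Alternatives were other thresholds, other sets for the adjustment, centring on the median gene, other base mean minimums and the summed deposited errors.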

Additional observations from a re-analysis of the deposited data

How the results depend on the processing

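The number of genes past the test moved with the threshold and the set adjusted over. Of the 49 members 10 were lower in the combination at an adjusted p under 0.01 and 13 with Benjamini-Hochberg over every gene with a p-value, against 24 at an adjusted p under 0.10, 21 over genes whose base mean was 50 or more and 20 after centring on the median gene. The shares of all genes printed above hold for the main setting only. The member counts in this section show how calls move and are not set against all genes. With palbociclib 2 members, Rrm1 and Dbf4, passed at an adjusted p under 0.10. For the combination against ruxolitinib, 0 passed with the root of the summed squared deposited errors, an error that is larger by construction since it counts vehicle on both sides, and 10 at an adjusted p under 0.01, against 24 to 36 in the other settings. In simulated data the summed errors still found 51% of 2-fold and 92% of 4-fold changes for this comparison. They called 4 unchanged genes, against 16 with the recovered variances, where the false calls were a larger share than the threshold allows. The counts of 0 with ruxolitinib, for combination against palbociclib, for palbociclib against ruxolitinib and for the departure from the sum were 0 in each setting run. Over all genes the summed errors left 258 of 2764 calls for the combination against ruxolitinib, 1 of 262 against palbociclib, 18 of 140 for palbociclib against ruxolitinib and 11 of 315 for the departure. Centring, which takes 1 constant from every gene of a comparison, moved no member's call. No paired analysis was possible because the tables hold no values per library, and leaving out each replicate in turn was not run for the same reason. Whether 1 library carries any result cannot be read from group values. With 3 libraries a group and the members' spread, the median standard error of a member in the combination was 0.24 on the log2 scale. The smallest change that passed was -0.51, for Mcm4, and changes of like size in members with a wider spread, such as Gins1 at -0.48, did not pass.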

Other observations

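Dscc1 and Rfc3, which belong to clamp loaders, were the 2 members with the highest values with ruxolitinib. Dscc1 was at 482 normalised reads in vehicle, 527 under palbociclib, 743 under ruxolitinib and 486 under both, and at 0.62 ± 0.27 with ruxolitinib per the authors' deposited table (adjusted p = 0.240 by DESeq2). Rfc3 was at 1194 normalised reads in vehicle, 1211 under palbociclib, 1628 under ruxolitinib and 1030 under both, and at 0.45 ± 0.20 with ruxolitinib there (adjusted p = 0.285). Neither passed, and both were chosen after their values were seen. Ung, which removes uracil from DNA, was the highest member with palbociclib, at 0.42 ± 0.24 per the authors' deposited table (adjusted p = 0.294), from 1792 normalised reads in vehicle to 2397.

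Across the 49 genes the combination fold change went with the modelled replicate variation, at a Spearman's rho of -0.52, lower values going with a wider spread. The genes share libraries and depth, and the value is a description. Pold4, a small subunit of polymerase delta outside the 49, was the highest of the other replication genes in the combination at 0.54 ± 0.28 per the authors' deposited table (adjusted p = 0.144). It was the 1 gene of that list higher in the combination than with ruxolitinib, by 1.03 ± 0.28 in log2 (adjusted p = 0.00307 by the 2-sided normal test). Of all genes tested in that comparison, 12.3% were higher.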
